A study of Mus musculus with 6 samples.

Results

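The interferon-stimulated genes described here are 36 mouse genes chosen by name, among them the signal factors *Irf7* and *Irf9*, the ISG15 system, the IFIT and OAS families, RNA sensors and other antiviral effectors. Of the 36, 33 were listed with a value among the 16381 genes of the table, and 31 of these, with a normalized count of 10 or more somewhere among the 6 samples, were tested. *Ifit3b*, *Oas2* and *Oasl2* had no row, and *Ifit3* and *Mx1* stayed below 10 in every sample. The cells were aILC2s, group 2 innate lymphoid cells activated in vivo, sorted from lungs of wild-type BALB/c mice aged 6 to 8 weeks at a purity of at least 95%. All mice had received IL-33 at 0.5 µg per day for 3 days, so the vehicle group was activated too. The cells were then kept in culture for 24 h, either with melatonin at 250 µM or with its vehicle DMSO, and RNA from 3 samples per group was sequenced in bulk. The labels do not say whether the 3 samples of a group came from separate mice or cultures, so p-values measure the spread between these samples only. In the vehicle group this spread may be technical, while in the melatonin group the X- and Y-linked transcripts given further on differ between samples, so these were not all drawn from 1 pool of cells.

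Interferons are cytokines that signal through paired receptors and the kinases JAK1, JAK2 and TYK2. Type I interferons activate a transcription factor complex that contains STAT2 and IRF9 and binds a short DNA element in the promoters of its target genes. The proteins made in response sense viral RNA, block viral entry and replication, or feed back on the pathway, and many of these genes are also kept at a basal level in resting lymphocytes.

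Values are normalized counts, estimated read counts divided by a size factor for each sample. The estimated depth was between 17056267 and 20511700 counts per sample, and a value of 3 counts or fewer was treated as the floor, which covers counting error only. All 13 ILC2 markers examined were listed, and with melatonin 8 of them fell and 2 rose (limma, adjusted p under 0.05), 76.9% against 49.2% of all genes called in either direction, with a median log2 fold change of −0.77. Among markers of other leukocytes, *Cd4*, *Cd5*, *Cd8a*, *Ms4a1*, *Marco*, *Clec9a*, *Siglech* and *Ly6g* had no row, but others were present. The T cell receptor gene *Trbc2* was at 3747, 3484 and 3444 in vehicle and 1706, 1278 and 1380.2 in melatonin, and *Gzma*, a granzyme of NK cells, averaged 6499 ± 720.1 in vehicle and 135 ± 70.2 in melatonin (SD, n = 3). Of the same T cell list, *Trac* was at 5.60, 13.1 and 6.30 and *Cd3d* at 14.9, 13.1 and 7.34 in vehicle. *Cd3e* was at 212, 226 and 192, *Cd3g* at 1086, 1097 and 1004 and *Trbc1* at 1511, 1442 and 1395 in vehicle. *Lyz2*, a myeloid lysozyme, was at 981, 912 and 1094 in vehicle and 252, 635 and 575 in melatonin. B cell markers, 2 of 4 listed, summed to between 289 and 322 in vehicle and between 131 and 162 in melatonin, and dendritic cell markers, 5 of 7 listed, to between 818 and 852 in vehicle and between 668.5 and 856 in melatonin. Most of the dendritic sum was *Xcr1*, at 615, 684 and 658 in vehicle and 802, 599 and 579 in melatonin, while the integrin gene *Itgax* fell from 132, 113 and 106 to 1.87, 33.9 and 45.2 (log2 fold change −2.82, limma adjusted p = 0.027). All 6 epithelial markers were listed, of which 3 fell and 1 rose, with *Krt8* and *Sftpb* at 0 in every melatonin sample. *Sftpc*, a surfactant protein gene, was at 155, 122 and 389 in vehicle and 6.54, 5.46 and 3.02 in melatonin, and the club cell gene *Scgb1a1* at 95.2, 21.5 and 1045 in vehicle and 0, 0 and 1.01 in melatonin, with vehicle replicate 3 the highest for both. *Epcam*, the marker that rose, was at 623, 745 and 634 in vehicle and 1229.8, 1016 and 1046 in melatonin. Endothelial and stromal markers, 2 of 6 listed, summed to between 1068 and 1134 in vehicle and between 338 and 503 in melatonin, mostly through *Pecam1* (log2 fold change −1.55, limma adjusted p = 5.3e-05). The part of these markers in the values of the members was not tested. In bulk RNA, fewer cells of a type and less RNA per cell cannot be told apart.

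With melatonin, 6 of the 31 tested members rose and 6 fell at an adjusted p under 0.05 (limma, Benjamini-Hochberg over 14419 genes), and 19 did not pass. Over all genes tested, 24.5% were called higher and 24.7% lower, 49.2% together, against 38.7% of the members. The median log2 fold change of the members was 0.04, beside −0.00 for all genes. *Herc6*, *Samhd1*, *Dhx58*, *Cmpk2*, *Parp9* and *Ifi35* were higher, and *Ifitm3*, *Oasl1*, *Isg20*, *Trim25*, *Bst2* and *Parp14* were lower. All melatonin samples lay above all vehicle samples for 6 of the 31 members, against 30% of all genes, and below them for 6 of the 31, against 30.3%. Without vehicle replicate 3, 3 members in place of 6 were called higher, and over all genes 5598 were called in either direction in place of 7094.

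**Figure D1:**
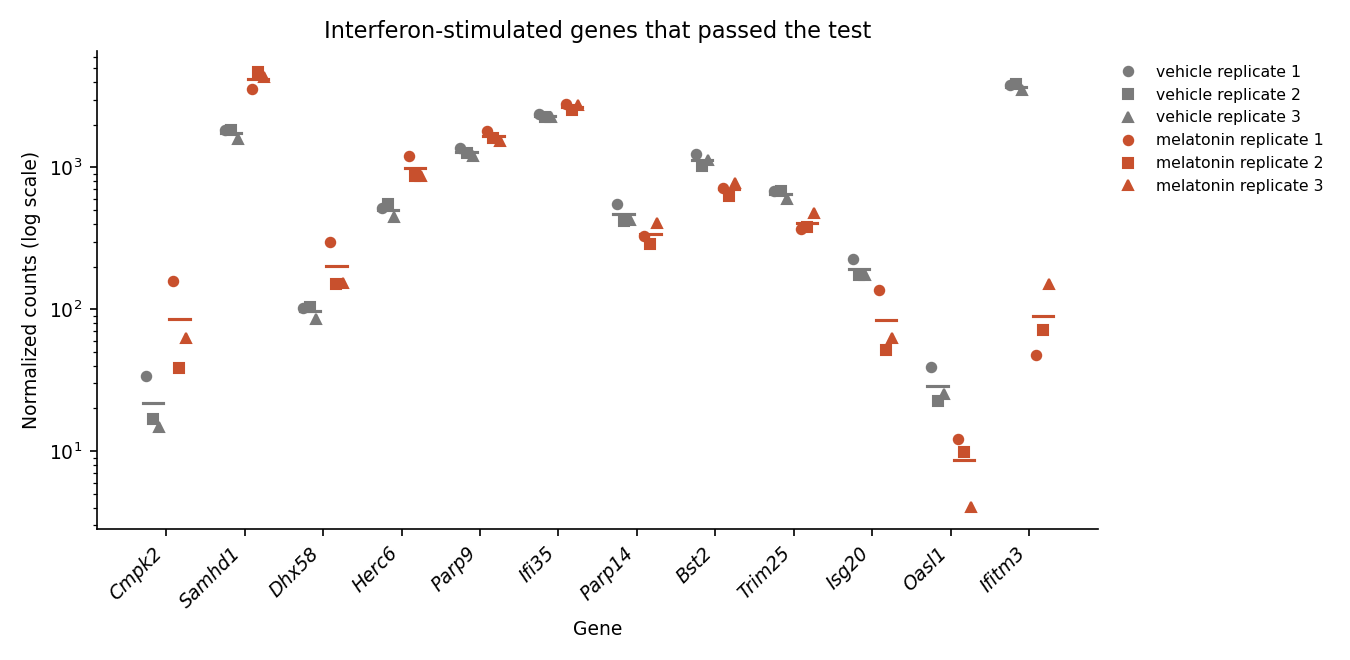
Normalized counts (log scale) of the 12 members that passed the test, ordered by log2 fold change, with 1 point per sample and a bar at the mean of each group of 3. *Ifitm3* fell from between 3491 and 3842 in vehicle to between 47.6 and 149.8 in melatonin, while *Samhd1* and *Cmpk2* lay above all their vehicle values.

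Among effectors that act on viral particles, *Ifitm3* changed most. It encodes a membrane protein that hinders the fusion of viruses with endosomes, and lies on GRCm39 chromosome 7, 140589499 to 140591282 (ENSMUSG00000025492). The vehicle samples held 3789, 3842 and 3491 normalized counts and the melatonin samples 47.6, 71.0 and 149.8. Every melatonin sample was far below every vehicle sample, and melatonin replicate 3 was the highest of its group. The log2 fold change was −5.52 (standard error, SE, 0.33, adjusted p = 1.9e-05 by limma) and lay between −5.97 and −5.15 when each sample was left out in turn. Of its exon bases, 60.9% lie in exons of other annotated genes on either strand, the largest overlap being with *Gm57251*. Of its 50-base stretches, 4.04% also occur in transcripts of other genes. Whether reads were divided between these genes was not tested. The nearby paralogues moved the same way: *Ifitm2* had 2308, 2471 and 2225 in vehicle and 77.5, 162 and 182 in melatonin, and *Ifitm1* had 884, 887 and 799 in vehicle and 0, 22.9 and 23.1 in melatonin. The log2 fold changes of this pair were −4.14 (SE 0.27, adjusted p = 2.5e-05 by limma) and −6.69 (SE 1.04, adjusted p = 0.001 by limma). That of *Ifitm1* lay between −7.45 and −5.16 when each sample was left out in turn. Macrophage and monocyte markers, 7 of 8 listed, also summed to less, from between 1353 and 1533 in vehicle to between 362 and 811 in melatonin, with *Marco* without a row. The epithelial genes *Sftpc* and *Scgb1a1* and the endothelial *Pecam1*, given above, were lower in every melatonin sample too. The epithelial *Epcam*, also given above, was higher in every melatonin sample. The sort, described with *Ifng* below, required CD45 and left out cells stained for CD11b or CD11c. The part of these markers in the fall of *Ifitm3* was not tested.

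*Bst2*, which encodes tetherin, a protein that holds budding virions at the cell surface, read 1244, 1016 and 1122 in vehicle and 716, 629 and 772 in melatonin. These groups were apart by a smaller step, a log2 fold change of −0.67 (SE 0.11, adjusted p = 0.0015 by limma). *Isg20*, an exonuclease that degrades RNA, had 225, 173 and 175 in vehicle and 137, 51.3 and 62.3 in melatonin. It fell by a log2 fold change of −1.31 (SE 0.33, adjusted p = 0.011 by limma), and replicate 1 was the highest in both groups. *Samhd1*, which breaks down deoxynucleotides, moved the other way, with 1839, 1818 and 1580.1 in vehicle and 3577, 4658 and 4335 in melatonin. Its log2 fold change was 1.26 (SE 0.11, adjusted p = 8.7e-05 by limma), and here melatonin replicate 1 was the lowest of its group. *Cmpk2*, a mitochondrial nucleotide kinase, was low in vehicle at 33.6, 16.9 and 14.7 and reached 157, 38.2 and 62.3 in melatonin. Its log2 fold change of 1.78 (SE 0.51, adjusted p = 0.019 by limma) did not pass without vehicle replicate 2 (adjusted p = 0.066) or vehicle replicate 3 (0.074), or when limma was run without its trend (0.055). *Rsad2*, the viperin gene, lies 12751 bases from *Cmpk2* on chromosome 12, but was near the floor, at 0.933, 12.2 and 2.10 in vehicle and 9.34, 0 and 14.1 in melatonin, so no change was detectable at this depth. *Mx1*, a dynamin-like GTPase, was at 8.40, 9.37 and 0 in vehicle and listed at 0 in every melatonin sample.

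Promoter sequence was read for the members because many interferon-stimulated genes are known to carry a short control element there. RefSeq windows of 300 bases, from 250 before to 50 after a transcript start, were found for 28 of the 36 genes in a table of the earlier GRCm38.p6 build, and each window matched a single place in GRCm39, where the coordinates below are counted. The letters searched were GAAA, any 2 bases and GAAA again, the core of the interferon-stimulated response element, on both strands, with overlapping matches kept. They stood in 13 of the 28 genes, 46.4%, against 3.99% of all 27025 genes with a window, and in 13 of the 36 windows of the members, against 3.44% of all 32851 windows. The looser GAAANNGAA, which every match of the first form also holds, stood in 15 of the 28 genes against 9.76% of all genes, and in 15 of the 36 windows against 8.56% of all windows. Of the tested members with a window, the element was in 0 of 4 called higher, 2 of 5 called lower and 9 of 16 not called. A match is a description of the sequence, and no match says only that these letters are not in this window. The windows of *Ifitm3* and *Bst2*, which fell, and of *Isg15* and *Ifit1*, which were not called, are shown 5′ to 3′ because they set members of differing response side by side with the element in capitals.
Ifitm3 (chr7:140590608-140590907, minus strand): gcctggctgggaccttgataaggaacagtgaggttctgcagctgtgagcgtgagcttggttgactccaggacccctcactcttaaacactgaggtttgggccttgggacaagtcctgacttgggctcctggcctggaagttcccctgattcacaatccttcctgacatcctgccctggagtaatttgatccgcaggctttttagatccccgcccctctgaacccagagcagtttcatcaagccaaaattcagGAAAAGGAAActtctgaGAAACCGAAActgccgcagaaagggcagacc
Bst2 (chr8:71990067-71990366, minus strand): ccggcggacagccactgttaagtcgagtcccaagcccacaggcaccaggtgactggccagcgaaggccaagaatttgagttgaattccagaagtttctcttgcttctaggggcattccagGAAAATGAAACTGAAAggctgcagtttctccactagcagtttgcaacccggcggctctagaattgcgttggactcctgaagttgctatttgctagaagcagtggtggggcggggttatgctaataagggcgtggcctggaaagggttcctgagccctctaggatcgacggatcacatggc
Isg15 (chr4:156285226-156285525, minus strand): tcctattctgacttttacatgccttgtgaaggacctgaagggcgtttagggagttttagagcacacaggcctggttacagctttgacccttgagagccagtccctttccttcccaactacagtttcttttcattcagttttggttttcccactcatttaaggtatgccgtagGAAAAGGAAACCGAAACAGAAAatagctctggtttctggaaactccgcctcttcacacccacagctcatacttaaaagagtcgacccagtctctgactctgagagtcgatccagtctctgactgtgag
Ifit1 (chr19:34618039-34618338, plus strand): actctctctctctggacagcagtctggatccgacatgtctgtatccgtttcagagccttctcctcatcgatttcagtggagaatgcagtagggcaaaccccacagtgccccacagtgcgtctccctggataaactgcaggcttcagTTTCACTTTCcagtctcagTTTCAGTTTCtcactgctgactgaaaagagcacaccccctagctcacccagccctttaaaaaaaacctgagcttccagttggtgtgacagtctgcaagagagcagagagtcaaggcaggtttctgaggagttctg
Counted from the transcript start, 3 matches in *Isg15* overlap in a run from position −78, and 2 in *Bst2* overlap from position −130. Those of *Ifit1* start at −104 and −85 and read on the opposite strand. In *Ifitm3* they start at positions 3 and 20, inside the transcript.

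In the ISG15 system, the modifier and its protease did not pass the test, and 1 ligase gene rose while another fell. *Isg15*, the ubiquitin-like modifier, had 82.1, 57.2 and 40.9 in vehicle and 113, 47.0 and 56.3 in melatonin, with a log2 fold change of 0.21 (95% interval −0.63 to 1.05). *Usp18*, which removes ISG15 and restrains the type I receptor, had 145, 106 and 97.6 in vehicle and 146, 105 and 77.4 in melatonin, and a log2 fold change of −0.11 (95% interval −0.70 to 0.47). In both genes replicate 1 was the highest of each group and the groups overlapped. *Herc6*, the main mouse ISG15 ligase, was at 513, 549 and 446 in vehicle and 1203, 875 and 872 in melatonin, a log2 fold change of 0.95 (SE 0.15, adjusted p = 9.3e-04 by limma). *Trim25*, a ubiquitin ligase that acts on the RNA sensor RIG-I, was at 679, 680.2 and 598 in vehicle and 366, 377 and 479.5 in melatonin, a log2 fold change of −0.69 (SE 0.13, adjusted p = 0.0027 by limma). The calls of *Herc6* and *Trim25* held in each of the 6 fits that left out a sample. Of the *Herc6* sequence, 11% of 50-base stretches also occur in other genes, mostly *Gm45193*. For *Isg15* this share was 3.38%, while 31.1% of its exon bases lie in exons of other genes on either strand.

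**Figure D2:**
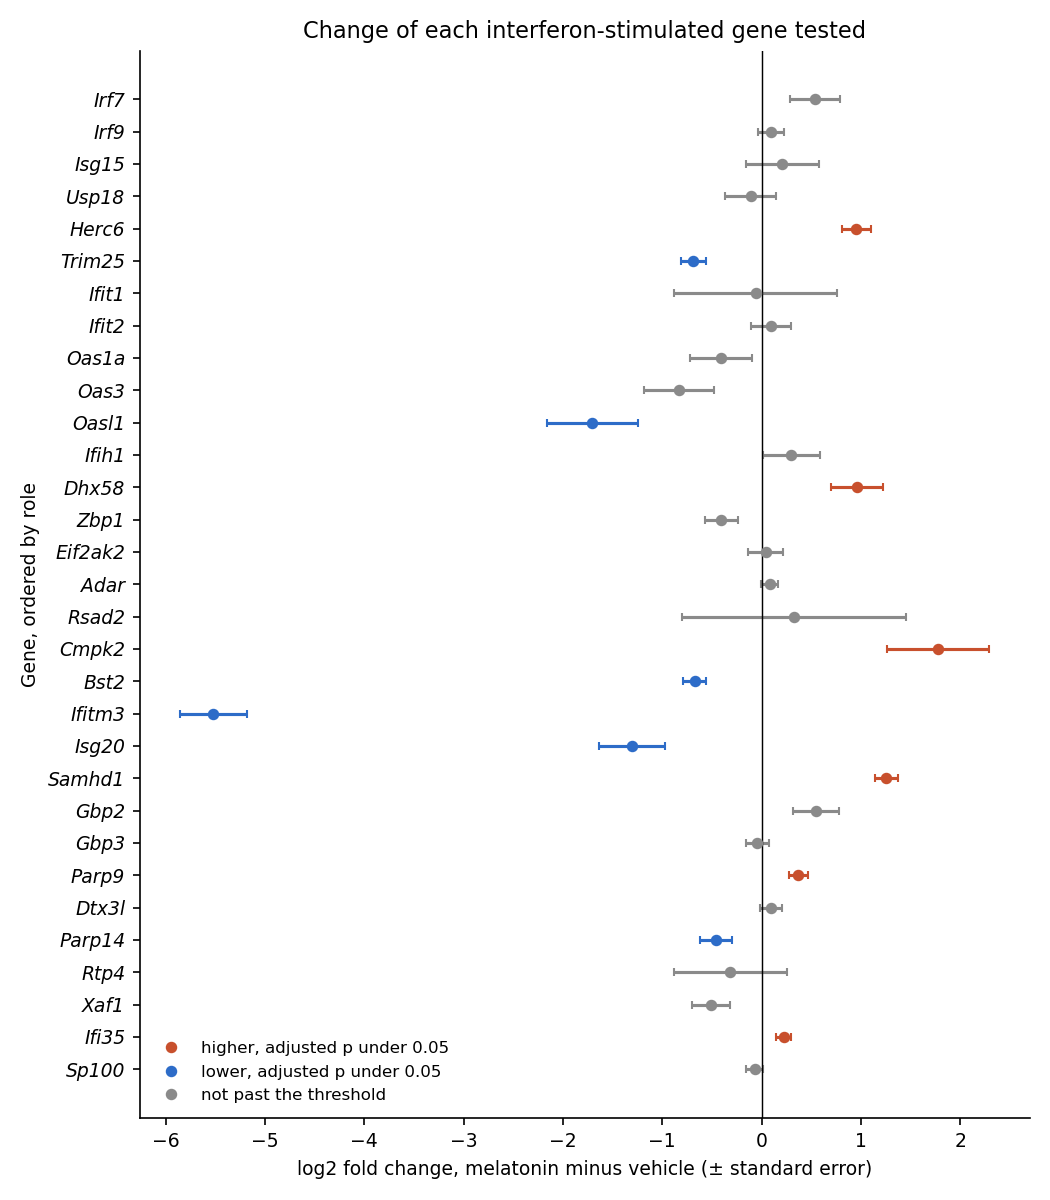
Log2 fold change (melatonin minus vehicle, ± standard error from limma) of the 31 tested members, ordered by role and coloured by whether the adjusted p was under 0.05. Of the 6 other antiviral effectors tested, 5 were called, against 49.2% of all genes. Of the 2 signal factors, 2 IFIT genes and 2 guanylate-binding proteins tested, 0 were called, groups too small to compare. *Ifitm3* at −5.52 lies far from the rest.

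The signal factors were not called. *Irf7*, which amplifies the type I response, had 485, 286 and 335 in vehicle and 749.8, 440.3 and 433 in melatonin, with a log2 fold change of 0.54 (limma adjusted p = 0.1). The groups overlapped through vehicle replicate 1, and without that sample the adjusted p was 0.037. *Irf9*, the DNA-binding part of the complex with STAT2, had 1036, 1063 and 867 in vehicle and 1261, 965 and 959 in melatonin, a log2 fold change of 0.10 (95% interval −0.20 to 0.39).

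Of the RNA-binding families, the IFIT genes did not pass and 1 OAS gene fell. *Ifit1*, whose protein binds viral RNA that lacks the host cap, was at 43.9, 20.6 and 23.1 in vehicle and 125, 9.83 and 14.1 in melatonin. Melatonin replicate 1 was above all other samples while the other two melatonin samples were the lowest of the 6, and the log2 fold change was −0.06 with a 95% interval of −1.91 to 1.79. *Ifit2* varied less, at 150.3, 202 and 119 in vehicle and 168, 169 and 156 in melatonin. *Ifit3* was between 2.53 and 5.03 in all samples, and 31.5% of its 50-base stretches also occur in *Ifit3b*, so its value is uncertain. *Oasl1*, an OAS-like protein that limits *Irf7* translation, had 39.2, 22.5 and 25.2 in vehicle and 12.1, 9.83 and 4.02 in melatonin. It fell by a log2 fold change of −1.70 (SE 0.46, adjusted p = 0.014 by limma), a call lost without vehicle replicate 1 (adjusted p = 0.062). *Oas3*, an activator of RNase L, had 145, 69.3 and 83.9 in vehicle and 83.1, 42.6 and 41.2 in melatonin, and a log2 fold change of −0.83 (limma adjusted p = 0.078) that passed without melatonin replicate 1 (adjusted p = 0.016) and with sample weights (0.028). *Oas1a* had 56.9, 37.5 and 38.8 in vehicle and 46.7, 27.3 and 27.1 in melatonin, and shares 14.4% of its 50-base stretches with *Oas1g*.

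Of the sensors, *Dhx58* rose. It encodes LGP2, a helicase that tunes RIG-I-like signalling, and read 103, 103 and 86.0 in vehicle and 297, 151 and 153 in melatonin. Its log2 fold change was 0.96 (SE 0.26, adjusted p = 0.015 by limma), lost without vehicle replicate 3 (adjusted p = 0.061), and melatonin replicate 1 was 1.96 times the mean of the other two. *Ifih1*, the MDA5 sensor of long RNA, had 78.4, 96.5 and 68.2 in vehicle and 150.3, 72.1 and 89.5 in melatonin. The nucleic acid sensor *Zbp1* had 1198, 930.4 and 837 in vehicle and 909.5, 687 and 641 in melatonin, with a log2 fold change of −0.41 (limma adjusted p = 0.069) that passed without melatonin replicate 1 (0.013), under upper quartile scaling (0.049) or quantile normalization (0.046), and with sample weights (0.017). *Eif2ak2*, the PKR kinase, and *Adar*, which edits adenosine in RNA, had log2 fold changes of 0.04 (95% interval −0.36 to 0.44) and 0.08 (95% interval −0.12 to 0.28).

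*Parp9* and *Dtx3l* overlap head to head on chromosome 16, with *Parp14* on the same chromosome, and their products act together in ADP-ribosylation. *Parp9* had 1369.6, 1259.7 and 1202 in vehicle and 1811, 1609 and 1540.3 in melatonin, a log2 fold change of 0.37 (SE 0.09, adjusted p = 0.01 by limma). *Dtx3l* had 1053, 884 and 825 in vehicle and 919, 1030.5 and 984 in melatonin, a log2 fold change of 0.09 (95% interval −0.16 to 0.34). *Parp14* had 552, 418 and 427 in vehicle and 328, 288 and 402 in melatonin, a log2 fold change of −0.46 (SE 0.16, adjusted p = 0.041 by limma), a call kept only without melatonin replicate 3 among the fits that left out a sample, and lost without the trend (0.082). As 8% of the exon bases of *Dtx3l* lie in exons of other genes on either strand, *Parp9* above all, reads there may be assigned to another gene.

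Of the remaining members, *Ifi35* alone was called, and 24.5% of its exon bases lie in exons of other genes, the largest overlap being with *Vat1*. *Ifi35*, a partner of NMI, had 2384, 2247 and 2266 in vehicle and 2777, 2530.2 and 2739 in melatonin, a log2 fold change of 0.22 (SE 0.08, adjusted p = 0.037 by limma) that was called in 2 of the 6 fits without a sample, and not without the trend (0.077) or under upper quartile scaling (0.094). *Gbp2*, a guanylate-binding protein that attacks pathogen vacuoles, had 607, 363 and 404 in vehicle and 885, 581 and 539.8 in melatonin, a log2 fold change of 0.55 (limma adjusted p = 0.076). It passed without vehicle replicate 1 (adjusted p = 0.021) and with a length correction chosen after seeing the data (0.043). *Gbp3* had 474, 474 and 549.8 in vehicle and 483, 524 and 447 in melatonin. *Xaf1*, a pro-apoptotic gene, had 278, 280.1 and 222 in vehicle and 227, 142 and 185 in melatonin, a log2 fold change of −0.51 (limma adjusted p = 0.052) that passed without melatonin replicate 1 (0.012), under upper quartile scaling (0.039) or quantile normalization (0.035), with sample weights (0.0061) and with the length correction (0.040). *Rtp4*, a receptor chaperone, had 91.5, 56.2 and 55.6 in vehicle and 154, 28.4 and 33.2 in melatonin, with melatonin replicate 1 above and the other two below every vehicle sample. Its log2 fold change of −0.31 (limma adjusted p = 0.67) became −1.08 without melatonin replicate 1 and was then called lower (adjusted p = 0.016). Of the 50-base stretches of *Rtp4*, 25.7% also occur in *Gm45338*, so its value is uncertain. *Sp100*, a nuclear body component, was abundant, at 3588, 3813 and 3373 in vehicle and 3576, 3602 and 3089.6 in melatonin. Per kilobase of annotated exon, the highest mean levels of the members in vehicle were 2894 normalized counts for *Ifitm3*, 928 for *Bst2* and 602 for *Ifi35*. In melatonin they were 703 for *Ifi35*, 581 for *Bst2* and 458 for *Samhd1*.

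The samples of a group disagreed, and replicate 1 was above the others for most members. Melatonin replicate 1 was the highest of its group for 20 of the 31 tested members, against 37.2% of all genes, and vehicle replicate 1 for 20, against 33.4%. Replicate 1 was the highest in both groups for 15 members, against 11% of all genes. In 11 members melatonin replicate 1 was at least 1.5 times both other melatonin samples, against 6.38% of all genes. The median difference of the members from the log2 mean of their group was 0.32 in melatonin replicate 1, −0.16 in replicate 2 and −0.14 in replicate 3, and 0.14, −0.05 and −0.16 in vehicle replicates 1, 2 and 3, while over all genes these medians were between −0.01 and 0.01. The median log2 difference of melatonin replicate 1 from the mean of the other two was 0.48 over all tested members and 0.15 over those with a mean of 100 or more. In melatonin replicate 1, *Ifit1* was 10.5 times the mean of the other two melatonin samples and *Irf7* 1.72 times. The levels of *Xist*, the RNA that coats the silenced X chromosome in female cells, were 13.6, 7.46 and 5.81 in vehicle and 0, 579 and 1091 in melatonin. The Y-linked *Ddx3y* was at 861, 907 and 746 in vehicle and 1071, 0 and 0 in melatonin, so melatonin replicate 1 went with the vehicle samples here, although the study's methods give female mice. The part of this in the pattern of the members and in the differences between the groups was not tested. Without melatonin replicate 1, every remaining melatonin sample had *Xist* and no *Ddx3y*, while every vehicle sample had *Ddx3y*. In those fits, treatment and this difference cannot be told apart.

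**Figure D3:**
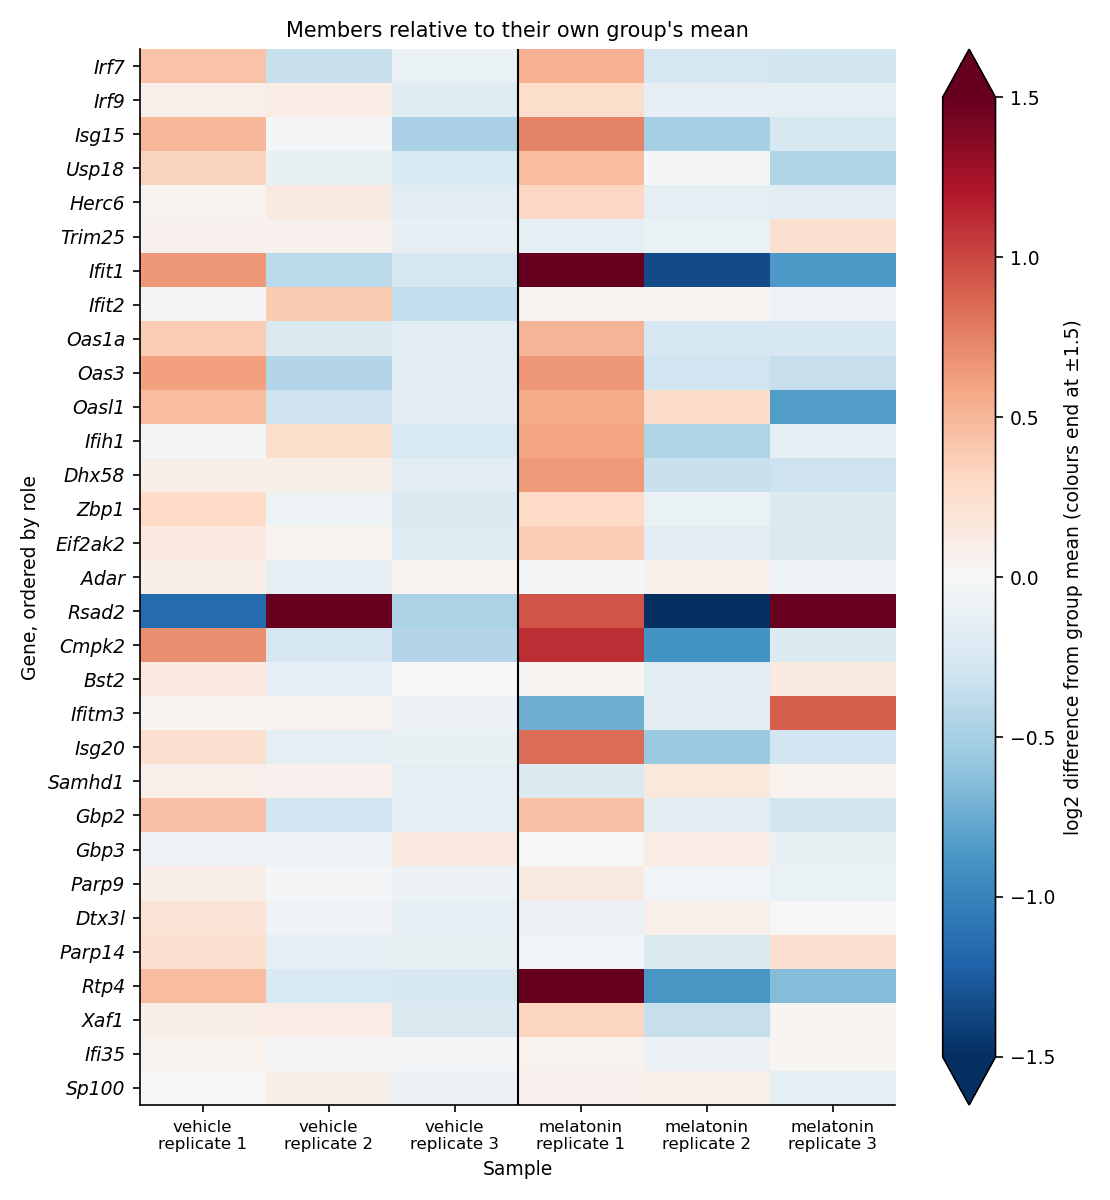
Log2 difference of each tested member from the mean of its own group (colour, ending at ±1.5) in each of the 6 samples. Replicate 1 is above its group's other samples in both groups for 15 of the 31 members, and *Ifit1*, *Rtp4* and *Cmpk2* are the deepest among them in melatonin.

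By likeness of profile, the 5 genes outside the members with a mean of at least 100 that followed their mean standardized profile most closely over the 6 samples were *Tgtp1* (r = 0.97), *Trim12c* (0.96), *Tgtp2* (0.96), *Scamp3* (0.96) and *Tmem51* (0.95). These are descriptions over 6 samples that share 1 normalization. *Tgtp1* and *Tgtp2* are near-identical interferon-inducible GTPases, so their reads may be divided between them.

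Upstream of the members, the receptor and JAK-STAT genes were higher. Of 9 tested, 8 rose and 0 fell, 88.9% against the 49.2% of all genes called in either direction, with a median log2 fold change of 0.88. Melatonin replicate 1 was the highest of its group for all 9, against 37.2% of all genes. Vehicle replicate 1 was so for 1 of the 9, against 33.4%. *Ifnar1* and *Ifnar2* encode the type I receptor. *Ifnar1* had 1086, 1215 and 1051 in vehicle and 3016, 2800.2 and 2318 in melatonin, a log2 fold change of 1.27 (SE 0.11, adjusted p = 8.3e-05 by limma). *Ifnar2* had 1133, 1137 and 1031 in vehicle and 1634, 1094 and 1348 in melatonin, which overlapped, and a log2 fold change of 0.29 (limma adjusted p = 0.11). For the interferon-γ receptor, *Ifngr1* had 1912, 2079 and 1783 in vehicle and 4718, 3168 and 2956 in melatonin, and *Ifngr2* had 483, 558 and 516 in vehicle and 1976, 1490.2 and 1367 in melatonin. These pairs did not overlap, and the log2 fold changes were 0.88 and 1.62 (limma adjusted p = 0.0024 and 7.4e-05). The kinases *Jak1*, *Jak2* and *Tyk2* had log2 fold changes of 0.64, 1.53 and 0.44 (limma adjusted p = 6.4e-04, 0.0012 and 0.016), the last called in 3 of 6 fits without a sample. *Stat2* had 932, 864 and 859 in vehicle and 1985, 1976 and 1737 in melatonin, a log2 fold change of 1.10 (limma adjusted p = 5.9e-05).

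**Figure D4:**
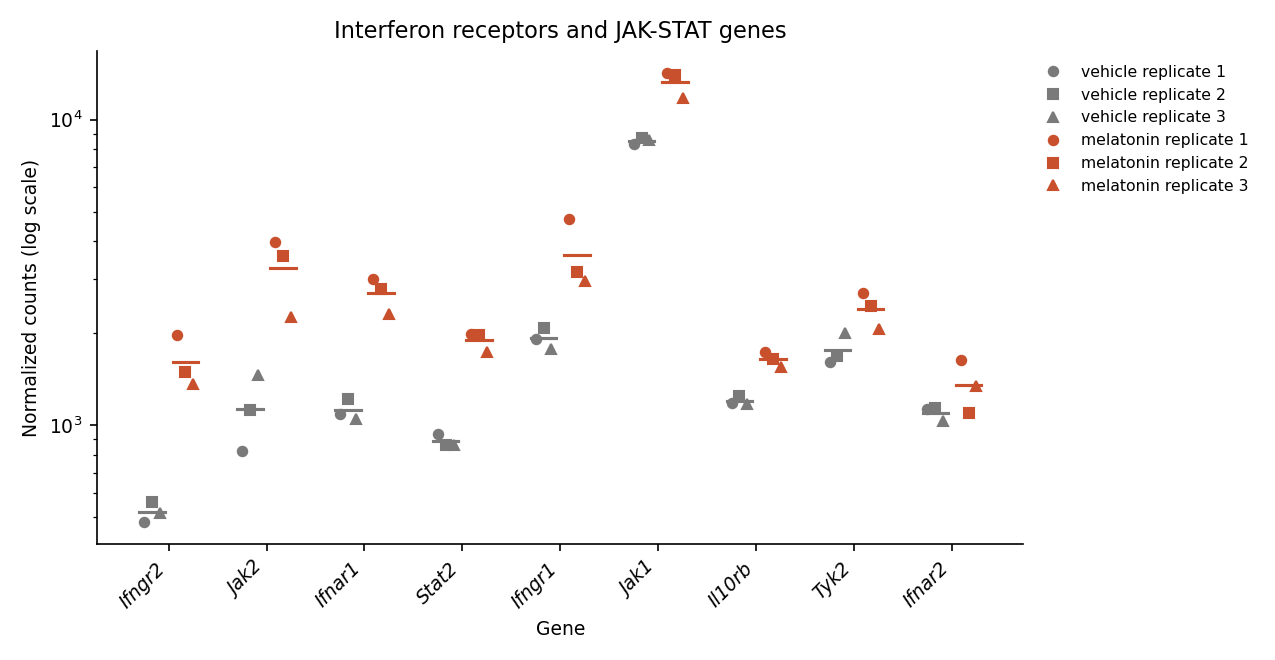
Normalized counts (log scale) of the 9 listed receptor and JAK-STAT genes, with 1 point per sample and a bar at the mean of each group of 3. For 8 of the 9 genes all melatonin samples lie above all vehicle samples, and *Ifnar2* overlaps.

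Of 21 interferon genes, *Ifng* was the single one listed. It encodes interferon-γ, was at 76.5, 32.8 and 37.8 in vehicle and at 0 in every melatonin sample, and was at least 16.2-fold lower against a floor of 3 counts per library. Markers of NK cells and ILC1s, 5 of 6 listed, summed to between 5879 and 7197 in vehicle and between 65.4 and 198 in melatonin. Most of this was *Gzma*, at 7021, 6797 and 5677 in vehicle and 56.0, 159.5 and 190 in melatonin. *Ncr1* was at 104, 101 and 114 in vehicle and 0, 0 and 1.01 in melatonin. *Klrb1c* was low in vehicle, at 5.60, 9.37 and 6.30, and at 0 in all melatonin samples. *Eomes* overlapped, at 5.60, 0.937 and 4.20 in vehicle and 0, 2.19 and 3.02 in melatonin. T cell markers, 6 of 10 listed, summed to between 6049 and 6577 in vehicle and between 2127 and 3175 in melatonin. The sort described in the methods took CD45+ ST2+ CD127+ cells and left out those stained for CD3ε, TCRβ, CD335, CD11b or CD11c, among others, a gate that removes NK and T cells. The part of these markers in the fall of *Ifng* was not tested. The other 20 interferon genes, which include *Ifnb1*, had no row.

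Among the 14 tested sensing genes, 6 rose and 3 fell, 64.3% against 49.2% of all genes. For 12 of the 14, melatonin replicate 1 was the highest of its group, against 37.2% of all genes. *Rigi*, the RIG-I sensor, had 718, 623 and 692 in vehicle and 1628, 1014 and 1101 in melatonin, a log2 fold change of 0.85 (limma adjusted p = 0.0033), and the kinase gene *Ikbke* had a log2 fold change of 0.69 (limma adjusted p = 9.7e-04). *Sting1*, the adaptor for cytosolic DNA, had 4092, 4029 and 3915 in vehicle and 3596, 2619.9 and 2757 in melatonin, a log2 fold change of −0.44 (limma adjusted p = 0.013), and the adaptor *Traf3* had −0.40 (limma adjusted p = 0.0058). Of 7 other IRF family genes, 1 rose and 3 fell, 57.1% against 49.2% of all genes. *Irf4* had 3026, 2728 and 2992 in vehicle and 468, 1249 and 1328 in melatonin, a log2 fold change of −1.66 (limma adjusted p = 0.0037), and *Irf8* had −1.18 (limma adjusted p = 7.4e-04). The one that rose was *Irf2bp1*, an IRF2 partner, at 0.55 (limma adjusted p = 0.0023). *Irf1* had 3083, 2646 and 2451 in vehicle and 3127, 2044 and 2097 in melatonin, a log2 fold change of −0.19 (limma adjusted p = 0.35), and was called lower without melatonin replicate 1 (adjusted p = 0.012).

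Of 12 negative regulators, 4 rose and 4 fell, where 24.5% of all genes were higher and 24.7% lower. *Socs3*, a feedback inhibitor of JAK signalling, had 4149.9, 4389 and 4262 in vehicle and 985, 1916 and 1852 in melatonin, a log2 fold change of −1.49 (limma adjusted p = 8.1e-04). *Socs1*, its relative that acts on the interferon receptors, had 8656, 8901 and 9864 in vehicle and 7629, 7366 and 7467 in melatonin, a log2 fold change of −0.29 (limma adjusted p = 0.014) that did not pass under quantile normalization (adjusted p = 0.14) or without vehicle replicate 3 (0.066). *Nlrc3* had −0.32 (limma adjusted p = 0.031) and was called in 1 of 6 fits without a sample. The rises were led by *Pias3* at 1.06 (limma adjusted p = 1.5e-04), an inhibitor of STAT3, and *Trim24* at 0.69 (limma adjusted p = 0.0017). The count of lower genes was 2 without vehicle replicate 1 or 2 or melatonin replicate 2 or 3, 1 without vehicle replicate 3 and 5 without melatonin replicate 1.

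Beyond the members, 62 other interferon-stimulated genes were tested, of which 11 rose and 16 fell, 43.5% against 49.2% of all genes, with a median log2 fold change of −0.03. Among called genes whose mean reached 100 and whose groups did not overlap, the largest rises were *Slfn2*, a regulator of lymphocyte quiescence, with 2490.3, 2431 and 2381 in vehicle and 8844, 6269 and 6283 in melatonin, and *Trim14* and *Trim34a*. Their log2 fold changes were 1.53, 1.28 and 1.25 (limma adjusted p = 7.1e-05, 3.7e-04 and 0.0031). Likewise, the falls were led by *Ifitm1* and *Ifitm2*, above, and *Epsti1*, with 367, 336 and 289.6 in vehicle and 115, 73.2 and 71.4 in melatonin and a log2 fold change of −1.95 (limma adjusted p = 2.0e-04). Of 16 interferon-inducible GTPases, 1 rose and 4 fell, 31.2% against 49.2% of all genes. *Gbp7* had 1296, 1083 and 958 in vehicle and 3112, 2164 and 1997 in melatonin, a log2 fold change of 1.11 (limma adjusted p = 0.001). *Iigp1* had 392, 138 and 128 in vehicle and 109, 22.9 and 14.1 in melatonin, and *Gbp10* and *Gbp6* had log2 fold changes of −1.22 and −0.90 (limma adjusted p = 0.017, 0.014 and 0.015 for the 3 genes). Replicate 1 was the highest in both groups for 14 of the 16. The count of lower GTPases was 7 without melatonin replicate 1, 1 without melatonin replicate 2 or 3 and 0 without vehicle replicate 1, and the count of higher ones was 2 without vehicle replicate 1 or melatonin replicate 1 and 3 without melatonin replicate 3.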

How the data were processed

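RNA of 6 aILC2 samples was sequenced, 3 with melatonin and 3 with vehicle. Reads were trimmed by the authors in Partek Flow, mapped to mm39 by STAR, assigned to GENCODE genes by the Partek E/M algorithm and put through DESeq2's median ratio normalization. The deposited values are therefore a signal (size-factor-scaled estimated counts), from which whole reads were not recovered. From these values, log2(normalized count + 1) was tested with limma 3.58.1 in R 4.3.3 (lmFit, eBayes with trend, no term but treatment). The 14419 genes that reached a value of 10 in 1 sample or more were tested, with Benjamini-Hochberg adjustment over them and a threshold of 0.05. This scale understates the change of low genes. An exact permutation test of 3 against 3 samples cannot go below a two-sided p of 0.1. Fits were tested on simulated data. Chi-square statistics per degree of freedom between replicates were between 6.36 and 37.3, so no sample was a copy of another. Names and GRCm39 positions came from GENCODE release M39, which named 16334 of 16381 identifiers. Promoters came from RefSeq, and shared 50-base stretches from the M39 transcripts. All 36 members are accounted for; other genes named are a fixed set plus, among called genes whose mean reached 100, the largest rises and falls of each list (2 per direction, or 3 for the other interferon-stimulated genes and the GTPases, where groups also do not overlap). Members and lists were chosen with earlier results of these data known. Alternatives were pseudocounts of 0.1 and 10, other filters, scalings and limma settings, blocking on the replicate number, leaving out each sample, a threshold of 0.01 and looser promoter letters. A correction for length was added after seeing the data. The melatonin libraries are numbered 20 to 22 and the vehicle libraries 32 to 34, so treatment and any batch that follows these numbers cannot be told apart. Items withheld for evaluation are not reported here and were left out of the lists and their counts.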

Additional observations from a re-analysis of the deposited data

How the results depend on the processing

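Of 487 refits of single members, 449 kept the side of the threshold, 19 gained and 19 lost a call, and none of the 12 called members changed direction. At an adjusted p of 0.01, 2 members were higher and 3 lower, and 26 other pathway genes were higher and 16 lower. Over all genes, 15.2% were higher and 15.7% lower at this threshold. At 0.05, 31 other pathway genes were called in each direction, where 24.5% of all genes were higher and 24.7% lower. Those tested were 1 ligand, 9 receptor and JAK-STAT, 14 sensing, 7 IRF, 12 negative regulator, 62 other interferon-stimulated and 16 GTPase genes. With each sample left out in turn, between 3 and 7 members were called higher, between 4 and 9 lower, and between 22 and 42 other pathway genes lower. In the same fits between 5464 and 7070 of all 14419 genes were called in either direction, against 7094 with every sample. Without the trend of limma, *Cmpk2*, *Ifi35* and *Parp14* lost their calls, 9 members were called and 6145 of all genes. The median log2 fold change of the members lay between −0.14 and 0.11 over the fits that left out a sample. The median log2 difference of melatonin replicate 1 from the other two was 0.48 and became 0.15 when members with a mean under 100 were left out, and the cause was not tested. With the replicate number as a block, 10 of the 12 member calls were shared, *Ifi35* (adjusted p = 0.061) and *Parp14* (0.052) were lost and *Gbp2*, *Irf7*, *Oas3* and *Zbp1* were gained, while 6438 genes were called in place of 7094. The numbers did not pair the samples: same-numbered samples had correlations of −0.05, 0.01 and −0.05 in their deviations from the group means, and no sample of vehicle correlated best with its own number over all genes. Over the 9990 genes whose mean reached 100 the correlations were −0.11, 0.14 and −0.19, and vehicle replicate 2 alone correlated best with its own number. Low counts limit *Rsad2*, *Ifit3* and *Mx1*.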
